A study of Mus musculus with 6 samples.

Results

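The genes described here are 9 members of the B7 and butyrophilin families, cell-surface proteins of the immunoglobulin superfamily that T cells and other lymphocytes read as signals to proceed or to stop. They were taken from the count table by gene symbol (Cd274, Pdcd1lg2, Cd80, Cd86, Icosl, Cd276, Vtcn1, Btn1a1 and Btn2a2), 9 of 21526 symbols. All 9 passed the filter on low counts. Pdcd1lg2, Btn1a1 and Btn2a2 passed it only through the Yap-activated group, since they had fewer than 10 counts in every Normal library. The 9 were chosen by symbol with their difference between the Normal and Yap-activated counts already known, so the values below describe these libraries and are not offered as a test.

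RNA was measured in epithelial cells of the mouse gastric corpus, the acid- and pepsinogen-secreting part of the stomach, in 3 Normal libraries and 3 Yap-activated libraries. Normal mice were wild-type (WT). Yap-activated mice, labelled as having gastric cancer, carried CluCreERT2, R26rtTA and HA-Yap+: a tamoxifen-dependent Cre driven from the Clu gene, a doxycycline-dependent activator at Rosa26 and a tagged Yap transgene. Yap is the transcriptional coactivator that the Hippo pathway restrains. Mice of both groups received tamoxifen (2 mg a day on 5 days) followed by a diet with doxycycline in the last 14 days, and the labels give no ages. The wild-type controls lack all 3 alleles, so what CreERT2 or rtTA do by themselves and what Yap does cannot be told apart here. The labels do not say that each library came from a separate mouse, so the spread between libraries may be technical in part.

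Totals ran from 36815754 to 48440033 counts in Normal libraries and from 25580734 to 44295619 in Yap-activated libraries. Mitochondrial genes took 27.6%, 16.1% and 15.1% of counts in Normal replicates 1 to 3 and 13.8%, 7.49% and 9.30% in Yap-activated replicates 1 to 3. This share did not overlap between the groups and was highest in Normal replicate 1, and its part in the results was not tested. Yap1 had 100.3, 105 and 106 CPM (a gene's count relative to its library total, with the total scaled by TMM for library composition) in Normal and 3085, 1468 and 1651 CPM in Yap-activated replicates 1 to 3. The general epithelial genes Epcam and Krt8 had means of 227 and 1706 CPM in Normal and 1020 and 3009 CPM in Yap-activated libraries. The corpus genes Atp4a and Pgc, of acid and pepsinogen secretion, went from means of 18324 and 111582 CPM to 22.8 and 168 CPM (n = 3 each). Since RNA was pooled over all cells of a sample, fewer cells of a type and less RNA per cell cannot be told apart.

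T cell activation needs a second signal beside the antigen receptor. CD80 and CD86 give it through CD28 on the T cell and withdraw it through CTLA-4, and ICOS ligand gives a related signal through ICOS. PD-L1 (Cd274) and PD-L2 (Pdcd1lg2) bind PD-1 and restrain the T cell, B7-H3 (Cd276) and B7-H4 (Vtcn1) are coinhibitory ligands found on many epithelial tumours, and butyrophilins share the extracellular fold and can act on T cells in a similar way. CD80, CD86 and PD-L2 are best known on dendritic cells, macrophages and B cells, whereas PD-L1, B7-H3 and B7-H4 can also be made by epithelium.

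Of the 9 genes, 8 were past the threshold and higher in Yap-activated tissue, and Icosl was not past it (adjusted p under 0.05, edgeR's quasi-likelihood test). Over all 14600 genes tested, 59.5% were past the threshold and 29.8% were past it and higher, and 29.7% were past it and lower. A level more than 4-fold higher was found for 5 of the 9 genes and for 8.29% of all genes tested. The groups did not overlap at 8 of the 9 genes, 7 of them higher and Icosl lower, where 67.6% of all genes tested showed no overlap in either direction. The median log2 fold change was 2.89 over the 9 genes and 0.01 over all genes tested. Because the choice of genes used this contrast, nothing is read from these counts.

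**Figure D1:**
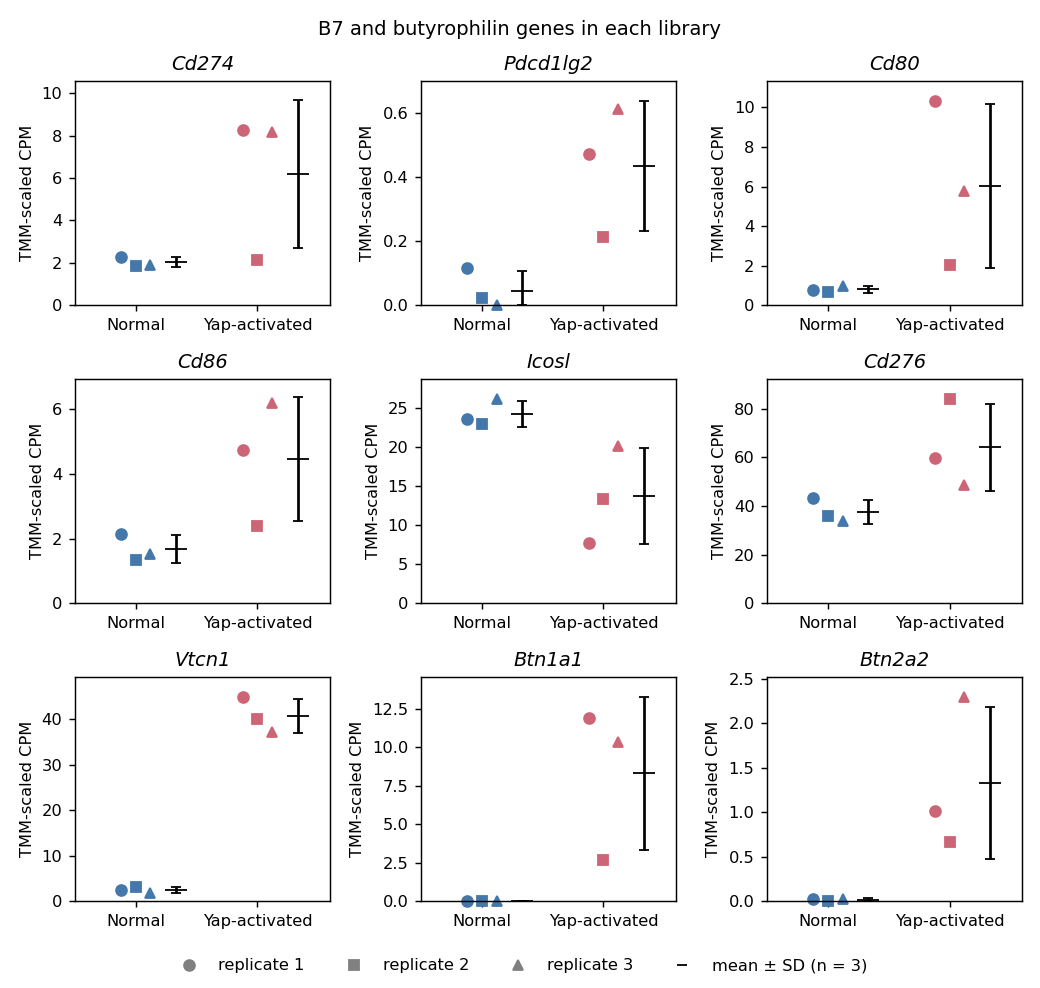
TMM-scaled CPM (linear axes from 0, a separate scale for each gene) of the 9 genes in Normal (blue) and Yap-activated (red) libraries. Marker shapes give the replicate and the bar beside each group is the mean ± SD of 3 libraries, not drawn below 0. Yap-activated replicate 2 (square) lies near the Normal libraries for Cd274 and lowest of its group for 6 genes, while the 3 Yap-activated libraries lie between 37.3 and 44.8 CPM for Vtcn1.

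The PD-1 ligand genes sit side by side. Cd274 lies on the plus strand of chromosome 19 from 29367455 to 29388095 (GRCm38), and Pdcd1lg2 on the same strand from 29410919 to 29471161, 22.8 kb further along, with no other gene of the count table between them. The 250 bases before the RefSeq start of each (GRCm38.p6, 5′ to 3′) are shown because these adjacent genes were both higher. Vtcn1, on the plus strand of chromosome 3, is added because its Yap-activated libraries differed least. The windows are chr19:29367188-29367437, chr19:29410669-29410918 and chr3:100825209-100825458, and capitals mark matches to the motifs named after them.
Cd274: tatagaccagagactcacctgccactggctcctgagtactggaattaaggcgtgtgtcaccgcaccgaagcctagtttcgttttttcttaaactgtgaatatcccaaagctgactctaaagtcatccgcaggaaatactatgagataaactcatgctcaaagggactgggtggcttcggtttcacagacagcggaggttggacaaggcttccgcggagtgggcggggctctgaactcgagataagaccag
Pdcd1lg2: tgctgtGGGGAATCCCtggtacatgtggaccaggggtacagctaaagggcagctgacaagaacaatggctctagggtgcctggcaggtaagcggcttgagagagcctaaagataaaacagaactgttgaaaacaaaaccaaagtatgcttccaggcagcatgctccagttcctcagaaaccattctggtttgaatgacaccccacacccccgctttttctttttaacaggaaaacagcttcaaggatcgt
Vtcn1: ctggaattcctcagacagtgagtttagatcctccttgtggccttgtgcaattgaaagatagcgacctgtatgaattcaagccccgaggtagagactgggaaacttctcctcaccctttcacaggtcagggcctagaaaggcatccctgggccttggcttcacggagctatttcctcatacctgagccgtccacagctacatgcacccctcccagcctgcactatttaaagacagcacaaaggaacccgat

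Such windows were found for 7 of the 9 genes and searched on both strands for 6 motifs. GGAATG, bound by the TEAD partners of Yap, was in 0 of the 7 and in 12.6% of all 32851 RefSeq promoter windows of that length. TGANTCA, the AP-1 motif, was in 1 of 7, that of Cd80 (TGATTCA, starting 42 bases before the RefSeq start), against 6.75% of all. That window, chr16:38458683-38458932, lies inside Cd80 as GENCODE places it, from 38455561. A match to the NF-kB motif was in 1 of 7, in capitals in the Pdcd1lg2 window above, against 3.90% of all. The interferon motifs GAAANNGAAA and TTCNNNGAA and the TATA box TATAAA were in 0 of 7, against 2.98%, 7.02% and 12.4% of all windows. Overlaps between motifs were allowed. A match is a description of letters and not a site, and its absence here says only that the letters are not in these 250 bases. The Cd276 and Icosl windows held 29 and 23 CpG dinucleotides against a median of 6 over all windows, while Cd274 had 11, Vtcn1 5, Cd80 3, Pdcd1lg2 3 and Btn2a2 2. For Cd276 the bases of the RefSeq window nearest its start were not matched to a transcript, so its window may belong to another start. The Cd276 window and part of the Icosl window also lie inside those genes as GENCODE places them.

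Cd274, which encodes PD-L1, had 2.30, 1.88 and 1.90 CPM in Normal replicates 1 to 3 and 8.24, 2.15 and 8.18 CPM in Yap-activated replicates 1 to 3. Yap-activated replicates 1 and 3 were almost equal and well above every Normal library, but replicate 2 lay within the Normal range, so the groups overlapped. The means were 2.02 ± 0.239 and 6.19 ± 3.50 CPM (SD, n = 3) and the log2 fold change was 1.61 (SE 0.48). Leaving out Yap-activated replicate 2 gave 2.01. It fell below the threshold with limma voom and without any 1 of the other 5 libraries, in 6 of the 14 alternative analyses, with log2 fold changes from 1.35 to 1.70 there.

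Pdcd1lg2, which encodes the second PD-1 ligand PD-L2, was scarce. It had 4, 1 and 0 counts in the Normal libraries and 14, 9 and 33 counts in the Yap-activated libraries, or 0.116, 0.0238 and 0 CPM against 0.474, 0.215 and 0.614 CPM. Every Yap-activated library was above every Normal one, with replicate 2 again the lowest of its group. The scaled ratio of summed counts was 9.67, with an exact 95% binomial interval of 3.91 to 30.9 that covers counting error only. The log2 fold change moved from 3.15 to 4.72 without Normal replicate 1, and was 2.79 and not past the threshold without Normal replicate 2.

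Cd80 and Cd86 encode the ligands shared by CD28 and CTLA-4. They lie on chromosome 16 (GRCm38), Cd80 at 38455561 to 38496335 (plus strand) and Cd86 at 36603869 to 36666081 (minus strand). Cd80 had 0.786, 0.665 and 0.980 CPM in Normal and 10.3, 2.05 and 5.77 CPM in Yap-activated libraries. The lowest Yap-activated library, replicate 2, was still 2.09-fold above the highest Normal one. The log2 fold change was 2.89 (SE 0.57), and 3.30 without Yap-activated replicate 2.

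Cd86 had 2.16, 1.33 and 1.52 CPM in Normal and 4.74, 2.41 and 6.21 CPM in Yap-activated libraries. The groups did not overlap, although the margin was 1.12-fold, and the log2 fold change was 1.42 (SE 0.39). It was not past the threshold without Normal replicate 2 (1.27) or Normal replicate 3 (1.35). Per kb of exon, Cd80 stood at 0.361, 0.494 and 0.639 times the level of Cd86 in Normal libraries and at 2.15, 0.842 and 0.918 times its level in Yap-activated ones. By these values Cd80 stood higher against Cd86 in each of the 3 Yap-activated libraries than in any Normal one. The closest libraries had few counts of Cd80 and Cd86, 86 and 101 in Yap-activated replicate 2 and 31 and 48 in Normal replicate 3. The counting error of these ratios was not worked out, so those libraries may not differ.

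Icosl, which encodes the ligand of the costimulatory receptor ICOS, was the 1 gene with a lower mean in Yap-activated tissue. It lies on chromosome 10 from 78069302 to 78083913 (plus strand, GRCm38). It had 23.6, 22.9 and 26.1 CPM in Normal and 7.79, 13.3 and 20.1 CPM in Yap-activated libraries. The Normal libraries were close together and the Yap-activated ones were spread 2.58-fold, all below the Normal range. The log2 fold change was -0.81 (SE 0.31). This did not pass the threshold in the fit used here, but did with DESeq2 (-0.80), with limma voom (-0.82), and without Yap-activated replicate 1 (-0.52) or Yap-activated replicate 3 (-1.18). It also passed with the replicate number as a block (-0.91). Scaling by library totals alone brought it to -0.31, not past the threshold.

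Cd276, which encodes B7-H3, lies at 58524298 to 58555437 of chromosome 9 (minus strand, GRCm38). Per length it had the highest mean of the 9 genes in both groups, although Vtcn1 was above it in Yap-activated replicates 1 and 3. It had 43.1, 35.8 and 33.7 CPM in Normal and 59.8, 83.8 and 48.6 CPM in Yap-activated libraries, so that the groups lay apart by a margin of 1.13-fold. Yap-activated replicate 2, lowest for Cd274, Cd80 and Cd86, was the highest here. The log2 fold change was 0.77 (SE 0.20), and 0.69, not past the threshold, without Normal replicate 3. With library totals alone it was 1.27.

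Vtcn1, which encodes B7-H4, lies on chromosome 3 from 100825459 to 100896922 (plus strand, GRCm38). It had 2.50, 3.16 and 1.80 CPM in Normal and 44.8, 40.1 and 37.3 CPM in Yap-activated libraries. The lowest Yap-activated library was 11.8-fold above the highest Normal one, and the Yap-activated libraries differed by a factor of 1.20. The log2 fold change was 4.02 (SE 0.21), between 3.83 and 4.51 over the 14 alternatives. With 1321, 1681 and 2006 counts, it was also the gene with the smallest spread in the Yap-activated group (coefficient of variation 9.26%, against 28.0% to 68.4% for the other 8).

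The butyrophilin genes had almost no reads in Normal and more in every Yap-activated library. There Btn1a1 and Btn2a2 stood at the 34.2 and 18.2 percentiles of mean level per kb of exon among the genes tested. Btn1a1, named for butyrophilin of the milk fat globule, lies at 23456992 to 23465901 of chromosome 13 (minus strand, GRCm38). Btn2a2, whose protein can inhibit T cells, is on the same strand at 23477676 to 23488857, 11.8 kb away and with no other gene of the table between them. Btn1a1 had 0, 2 and 1 counts in the Normal libraries and 350, 112 and 552 counts in the Yap-activated libraries, which is 11.9, 2.67 and 10.3 CPM in the latter. The scaled ratio of summed counts was 292 (exact 95% binomial interval 99.5 to 1417, counting error only). Btn2a2 had 1, 0 and 1 counts in Normal and 30, 28 and 123 counts in Yap-activated libraries, which is 1.02, 0.668 and 2.29 CPM in the latter. Its ratio was 78.1 (interval 21.3 to 650, counting error only). Both genes were lowest in Yap-activated replicate 2, and there too they stood far above the Normal libraries.

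**Figure D2:**
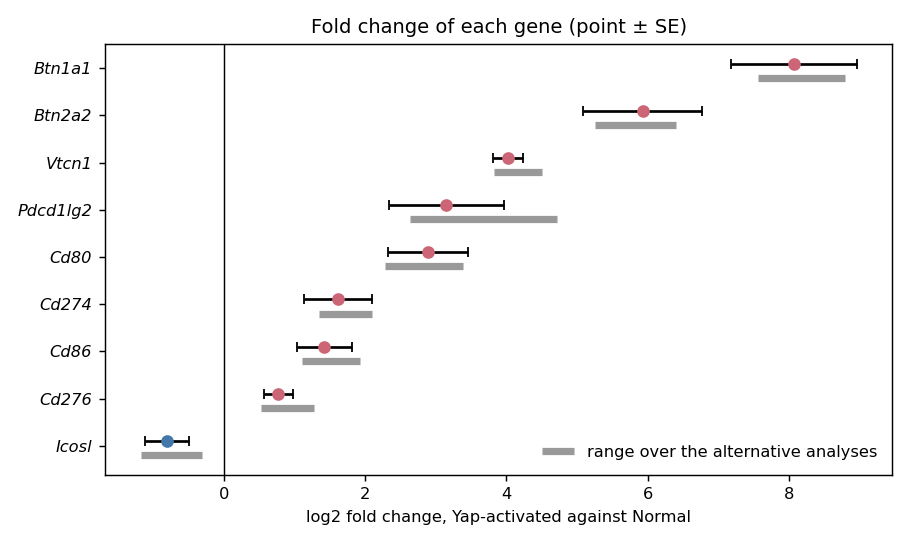
Log2 fold change of the 9 genes, Yap-activated against Normal, as a point with its SE from edgeR (red above 0, blue below 0). The grey bar under each point spans the values of the alternative analyses. Icosl alone lies below 0, and no gene crosses 0 in any alternative that gave it a value.

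Levels of different genes were compared only per kb of exon, as TMM-scaled CPM divided by the summed length of a gene's exons. In Normal libraries the order was Cd276 (10.3 ± 1.35), Icosl (5.24 ± 0.364), Vtcn1 (0.949 ± 0.259), Cd274 (0.559 ± 0.0660), Cd86 (0.456 ± 0.118) and Cd80 (0.219 ± 0.0429 CPM per kb, SD, n = 3). Pdcd1lg2, Btn2a2 and Btn1a1 followed at 0.0238, 0.00854 and 0.00640 CPM per kb. Neighbours in this order overlapped between libraries only for Cd274 with Cd86 and among the last 3 genes.

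In Yap-activated libraries the order was Cd276 (17.5 ± 4.91), Vtcn1 (15.5 ± 1.44), Icosl (2.97 ± 1.34), Btn1a1 (2.01 ± 1.19), Cd274 (1.71 ± 0.966), Cd80 (1.63 ± 1.12), Cd86 (1.22 ± 0.524), Btn2a2 (0.559 ± 0.360) and Pdcd1lg2 (0.221 ± 0.103 CPM per kb, SD, n = 3). Only Vtcn1 and Icosl were neighbours whose libraries did not overlap. Cd276 and Vtcn1 stood at the 83.3 and 80.9 percentiles of mean level among the genes tested, and Cd274 at the 31.4 percentile. With the longest coding transcript as the length, Cd274 moved from place 5 to place 7 in the Yap-activated order and changed places with Cd86 in the Normal order.

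The summed level of the 9 genes was 16.8 to 19.4 CPM per kb in Normal and 41.2 to 45.0 CPM per kb in Yap-activated libraries. Cd276 and Icosl made up 60.9% and 26.4%, 57.4% and 29.1%, and 54.9% and 33.7% of this sum in Normal replicates 1 to 3. In Yap-activated replicates 1 to 3, Cd276 and Vtcn1 made up 36.3% and 37.9%, 52.1% and 34.8%, and 32.3% and 34.6%. Vtcn1 had held 4.10% to 7.07% in Normal libraries. The PD-1 ligand Cd274 never exceeded 5.49%.

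**Figure D3:**
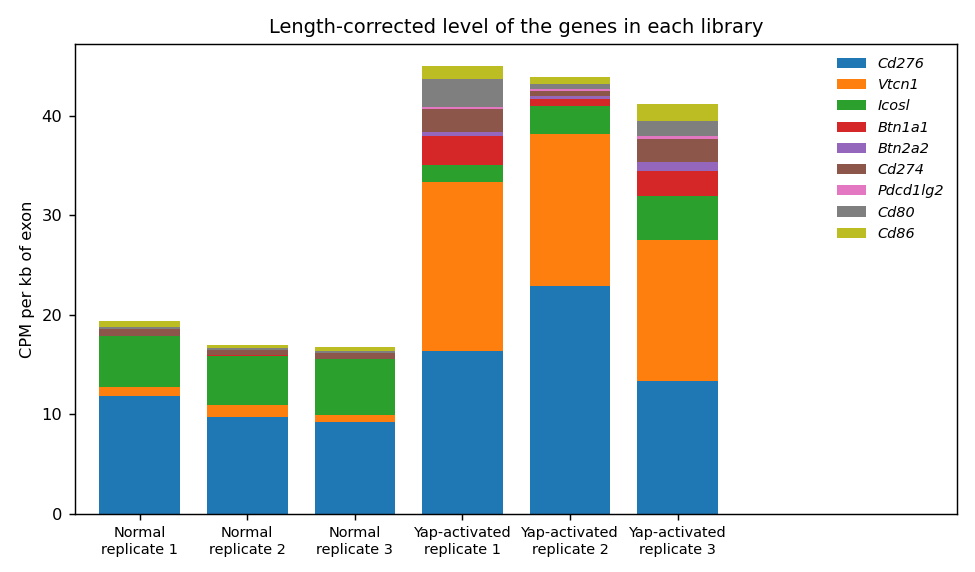
Stacked length-corrected levels (TMM-scaled CPM per kb of exon) of the 9 genes in each of the 6 libraries. The Yap-activated bars reach 41.2 to 45.0 against 16.8 to 19.4 in Normal, with Cd276 (lowest block) and Vtcn1 (second block) forming most of their height.

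Yap-activated replicate 2 divided the 9 genes. Its CPM was 24.1% to 44.0% of the mean of the other 2 Yap-activated libraries for Btn1a1, Cd80, Cd274, Pdcd1lg2, Btn2a2 and Cd86. For Icosl, Vtcn1 and Cd276 it was 95.1%, 97.7% and 155% of that mean. Over all genes tested the median of this percentage was 100%, with quartiles of 80.9% and 113%. The same library was low in leukocyte genes. The sum of 18 genes of dendritic cells and macrophages was 185, 119 and 531 CPM in Yap-activated replicates 1 to 3 and 104 to 117 CPM in Normal libraries. The sum of 15 lymphocyte genes was 19.1, 6.15 and 26.3 CPM, against 6.07 to 8.82 CPM in Normal. Jchain and Cd4 made up most of it in Yap-activated replicate 3 (14.9 and 7.81 CPM), but not in replicate 1 (4.2 and 1.46 CPM). The sum therefore does not rank these libraries by the lymphocyte genes as a whole. The sum of 8 neutrophil genes was 607, 27.0 and 250.1 CPM, against 7.36 to 10.8 CPM in Normal. S100a8 and S100a9 made up most of the neutrophil sum in Yap-activated replicate 1 (219 and 274 CPM). These 2, Retnlg and the scarce Ly6g and Mpo were highest in replicate 1. Csf3r, Cxcr2 and Il1r2 were highest in replicate 3 (44.8, 17.2 and 36.3 CPM). In replicate 2 the first 2 sums were at or close to the Normal range, as Cd274 was, while the neutrophil sum was above it. Single dendritic cell and macrophage genes lay on both sides of Normal in replicate 2, so their sum does not stand for each gene. For example, Itgax (8.87 CPM), Cd68 (15.3), Ptprc (14.3) and Ccr7 (0.739) were above every Normal library. Adgre1 (2.31 CPM), Mrc1 (5.82), Itgam (1.53) and Clec9a (0.167) were below every Normal library. How far leukocyte RNA contributes to the 6 genes was not tested.

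**Figure D4:**
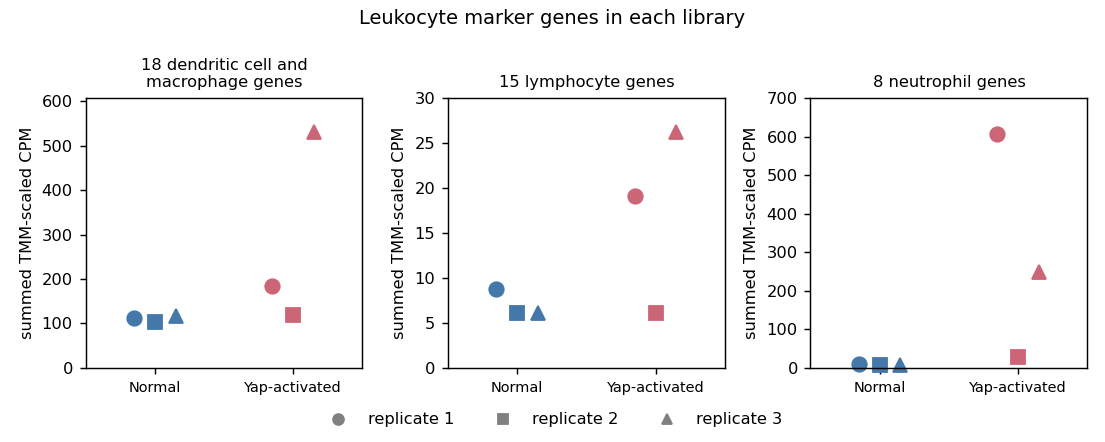
Summed TMM-scaled CPM of marker genes of dendritic cells and macrophages, of lymphocytes and of neutrophils in each library (Normal blue, Yap-activated red, marker shape by replicate, linear axes from 0). Yap-activated replicate 2 (square) is the lowest of its group in all 3 panels, replicate 3 (triangle) the highest in the first 2 and replicate 1 (circle) in the neutrophil panel. In the lymphocyte panel, Jchain and Cd4 make up most of the sum of every library except Yap-activated replicate 1. In the neutrophil panel, S100a8 and S100a9 make up most of the sum of Yap-activated replicate 1.

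Among the marker genes tested, 5 of 16 dendritic cell and macrophage genes rose (31.2%, against 29.8% of all genes tested) and 11 did not pass. The median log2 fold change of the 16 was 1.37. Those that rose were the pan-leukocyte gene Ptprc at 1.85, the integrin gene Itgax at 2.78, the chemokine receptor gene Ccr7 of migrating dendritic cells at 3.42, Cd68 at 1.45 and the receptor gene Csf1r at 1.57. Of the 11 others, the dendritic cell genes Clec9a and Zbtb46 were at -0.49 and -0.34. The macrophage genes Adgre1 and Mrc1 were at 0.07 and 0.27, and Itgam was at 0.78. Flt3, Fcgr1, Siglech and the C1q genes ran from 1.22 to 1.59. Without Yap-activated replicate 2 the number past the threshold was 10 of the 17 then tested, all higher. Without Yap-activated replicate 3 that number was 7 of 16, of which 5 were higher and 2 lower, Adgre1 (-0.99) and Mrc1 (-0.68). The call of Csf1r was lost with limma voom, with no filter on low counts, and without Yap-activated replicate 3 or any 1 Normal library (adjusted p from 0.0574 to 0.0973, limma voom and edgeR). The C1q genes were near Normal in Yap-activated replicates 1 and 2 and high in replicate 3 alone (C1qa 16.5, 16.2 and 86.2 CPM). Of 6 lymphocyte genes tested 1 rose, Gzma at 3.92, a call lost without Normal replicate 2 or Normal replicate 3 (adjusted p = 0.0601 and 0.0666, edgeR). Without Yap-activated replicate 2, 5 of the 10 then tested rose. The T cell receptor gene Cd3e had means of 0.475 and 0.494 CPM. The 6 neutrophil genes tested all rose, with log2 fold changes of 5.27 for the receptor gene Cxcr2 and 3.92 for Csf3r, although limma voom called 2 of them. No defining marker of dendritic cells, macrophages or lymphocytes was at 0 in all libraries, and Ly6g, of neutrophils, was at 0 counts in the Normal libraries.

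Over the 6 libraries, the genes whose log2 CPM ran most like that of Cd274 were Fcgr2b (Pearson r = 0.995), Fmnl1 (0.995) and Pde10a (0.994). In all, 170 of the genes tested had r over 0.95, and the points share the division into 2 groups. Fcgr2b, an inhibitory Fc receptor gene, had 20.1, 6.04 and 21.1 CPM in Yap-activated replicates 1 to 3, with the second again near the Normal mean of 6.10 CPM. Among the other 8 genes, Cd86, Cd80 and Pdcd1lg2 had r = 0.956, 0.942 and 0.938 with Cd274. Btn1a1 had 0.898, Btn2a2 0.864, Vtcn1 0.725, Cd276 0.298 and Icosl -0.582.

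Genes next to the 9 were examined by position alone, taking the 3 nearest genes of the table on each side, 42 in all, of which 32 were tested, 10 rose and 7 fell (adjusted p under 0.05, edgeR). Over all genes tested 29.8% rose and 29.7% fell. Plgrkt, a plasminogen receptor gene 0.1 kb from Cd274, reaches to 29367390 and so overlaps the Cd274 window shown above. Plgrkt fell from a mean of 53.6 to 27.1 CPM, a log2 fold change of -0.99 (SE 0.19, adjusted p = 0.00279, edgeR). Scaled by library totals alone, it did not pass (-0.49, adjusted p = 0.0513 by edgeR). Ric1 beyond Pdcd1lg2 rose by 0.45 on the log2 scale and Ermp1, next to it, fell by 2.03. The immediate neighbours of the PD-1 ligand genes thus went in both directions.

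At the butyrophilin genes the 4 tested neighbours did not pass the threshold, with log2 fold changes of 0.19 for Zfp322a, 0.19 for Abt1, -0.07 for the iron regulator gene Hfe and -1.89 for Slc17a2. By edgeR, 0 of the 4 passed the adjusted threshold and 0 had an unadjusted p under 0.05. DESeq2 called 0 and limma voom called 1, Slc17a2, at -2.84. Single libraries and the scaling moved these calls. Leaving out Yap-activated replicate 2 put Slc17a2 at -4.49 (adjusted p = 0.00234, edgeR), and leaving out Yap-activated replicate 3 put Hfe at -0.79 (adjusted p = 0.0268, edgeR), both then past the threshold. With library totals alone Zfp322a and Abt1 were both at 0.68 and past the threshold. Abt1, 33.1 kb from Btn1a1, had a mean of 12.4 CPM in Normal and 14.1 CPM in Yap-activated libraries.

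Elsewhere single neighbours rose by more than the gene beside them. Pla1a, a phospholipase gene 22.4 kb from Cd80, rose by 3.81 on the log2 scale and Ildr1, 27.9 kb from Cd86, by 3.66. Insyn1, 24.5 kb from Cd276, rose by 3.87. Near Vtcn1, Trim45 at 25.3 kb was at 0.38 and did not pass, Cd101, an inhibitory immunoglobulin-superfamily gene of leukocytes, rose by 3.45, and Tent5c fell by 4.96. Near Icosl, Pwp2 rose by 0.41, a call lost without any 1 library other than Yap-activated replicate 3 (adjusted p from 0.0602 to 0.093, edgeR), and Trappc10 and Agpat3 fell by 0.89 and 0.95.

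Genes of the same families outside the 9 had other values. Of 16 listed, 15 were in the table and 5 had counts enough to test, of which 2 fell and 3 did not pass (median log2 fold change -0.48). The 2 were 40.0% of those tested, where 29.7% of all genes tested fell. Btnl9, a butyrophilin-like gene, fell from 9.32, 6.22 and 8.85 CPM to 0.339, 0.573 and 0.558 CPM (log2 fold change -4.02, SE 0.31, adjusted p = 2.63e-05, edgeR). Btnl4 fell by 3.57 on the log2 scale, but Normal replicate 1, at 0.204 CPM against 3.66 and 3.04 CPM, was at the level of the Yap-activated libraries, and the call was lost with limma voom (-2.79, adjusted p = 0.0962). Vsir, which encodes the checkpoint protein VISTA, had 7.69, 7.10 and 7.15 CPM in Normal and 13.3, 3.96 and 25.7 CPM in Yap-activated libraries, with replicate 2 the lowest. It was at 0.97 and did not pass, and at 1.42 without Yap-activated replicate 2, where it passed (adjusted p = 0.00347, edgeR). In that fit 2 of the 7 family genes tested rose and 2 fell.

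Receptors that bind these ligands, and related lymphocyte receptors, were mostly scarce. Of 14 listed, 8 were tested, 5 rose, 1 fell and 2 did not pass. The 5 were 62.5% of those tested, where 29.8% of all genes tested rose. The number that rose was 3 with DESeq2, with the replicate block, and when either of Normal replicates 2 and 3 or of Yap-activated replicates 1 and 3 was left out. It was 8 of 11 tested when Yap-activated replicate 2 was left out. Pdcd1, which encodes PD-1, and Ctla4 had too few counts to test, with means of 0.158 and 0.143 CPM in Normal and 0.343 and 0.713 CPM in Yap-activated libraries. Cd28 rose by 1.72 (adjusted p = 0.04, edgeR), a call lost with DESeq2, with limma voom, with the replicate block and when any 1 library other than Yap-activated replicate 2 was left out (adjusted p from 0.058 to 0.132). Icos, the receptor of ICOS ligand, was at 1.27 and did not pass, but was at 1.78 and passed when Yap-activated replicate 2 was left out (adjusted p = 0.00768, edgeR). Both were lower in Yap-activated replicate 2 (0.239 and 0.0954 CPM) than in the other Yap-activated libraries. Rgmb, a bone morphogenetic protein coreceptor that also binds PD-L2, went from 97.5 to 28.2 CPM and fell by 1.79 on the log2 scale.

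Tigit, which encodes an inhibitory receptor of T and natural killer cells, stood apart from the rest of that list. It had 0.116, 0.0713 and 0.0948 CPM in Normal and 14.9, 4.87 and 5.90 CPM in Yap-activated libraries, a log2 fold change of 6.47 (SE 0.61, adjusted p = 7.51e-05, edgeR). It thus had 962 counts over the Yap-activated libraries, where Cd3e had 52. These counts were not corrected for gene length. Havcr2, which encodes TIM-3, rose by 3.15 and Lag3 by 1.78.

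Ligands of other checkpoint pathways changed in both directions: of 18 tested, 8 rose, 4 fell and 6 did not pass (median 0.58). The share that rose was 44.4%, against 29.8% of all genes tested. With library totals alone 10 rose and 3 fell, and Lgals9 was at -0.26 and did not pass. Pvr, whose protein binds TIGIT, rose from 13.7, 12 and 11.5 CPM to 85.9, 83.3 and 91.4 CPM (log2 fold change 2.81, SE 0.11, adjusted p = 1.40e-06, edgeR). The related adhesion genes Nectin1, Nectin2 and Nectin3 rose by 0.97, 1.26 and 0.90. Ceacam1, a ligand of TIM-3, rose by 5.43 and Lgals3, the galectin-3 gene, by 4.90. Cd47, the signal against engulfment, rose by 0.50, whereas Cd24a, with a similar role, fell by 1.76 and Lgals9 and Cd200 fell by 0.75 and 1.30. Like Vtcn1, Pvr was even over the Yap-activated libraries, with no dip in replicate 2.

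Genes linked to PD-L1 expression gave 11 rises, 5 falls and 4 that did not pass among 20 tested (median 0.55). The rises were 55.0% of those tested, against 29.8% of all genes tested. The falls depended on the scaling: with library totals alone 14 rose and 0 fell. They numbered 3 when the library left out was Normal replicate 2, when it was Normal replicate 3 and when it was Yap-activated replicate 1. Besides Yap1 and its partner Tead4 (5.31), Egfr rose by 2.23, Jun by 1.67, Myc by 1.37, Irf1 by 1.17 and the interferon-gamma receptor genes Ifngr1 and Ifngr2 by 0.88 and 0.84. Jak1, a kinase of cytokine receptor signalling, fell by 0.35 with TMM, but was at 0.15 with library totals alone (adjusted p = 0.408, edgeR). Its call was also lost with DESeq2's size factors, with upper-quartile scaling, and when either of Normal replicates 2 and 3 or of Yap-activated replicates 1 and 3 was left out (adjusted p from 0.051 to 0.132, edgeR). Cmtm6 and Cmtm4, whose proteins protect PD-L1 from breakdown, fell by 0.67 and 0.63 with TMM, and were at -0.18 and -0.14 with library totals alone, not past the threshold. Jak2, a kinase of the same pathway, was at 0.22 and did not pass, but passed with library totals alone (0.71), with upper-quartile scaling (0.27) and when Yap-activated replicate 1 was left out (0.28).

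Interferon-gamma response genes mostly did not pass: of 16 tested, 3 rose (18.8%, against 29.8% of all genes tested) and 13 did not pass (median 0.44). Without Yap-activated replicate 3, 2 rose and 5 fell. Those past the threshold with all libraries were H2-Ab1 at 2.07, Socs1 at 1.23 and Cxcl10 at 1.06. Cxcl10 lost its call without Normal replicate 1 or 2, or without Yap-activated replicate 2 or 3 (adjusted p from 0.0956 to 0.164, edgeR) and with no filter on low counts (0.0545), and Socs1 without Normal replicate 1 or 3 or Yap-activated replicate 1 (0.0983 to 0.117) or with the replicate block (0.0541). Ifng itself had 2 counts over the Normal and 3 over the Yap-activated libraries. Cd74, the invariant chain gene, had 40.2, 62.7 and 276 CPM in Yap-activated libraries against a Normal mean of 52.0 CPM, so that replicate 3 alone was high, as for the C1q genes.

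**Figure D5:**
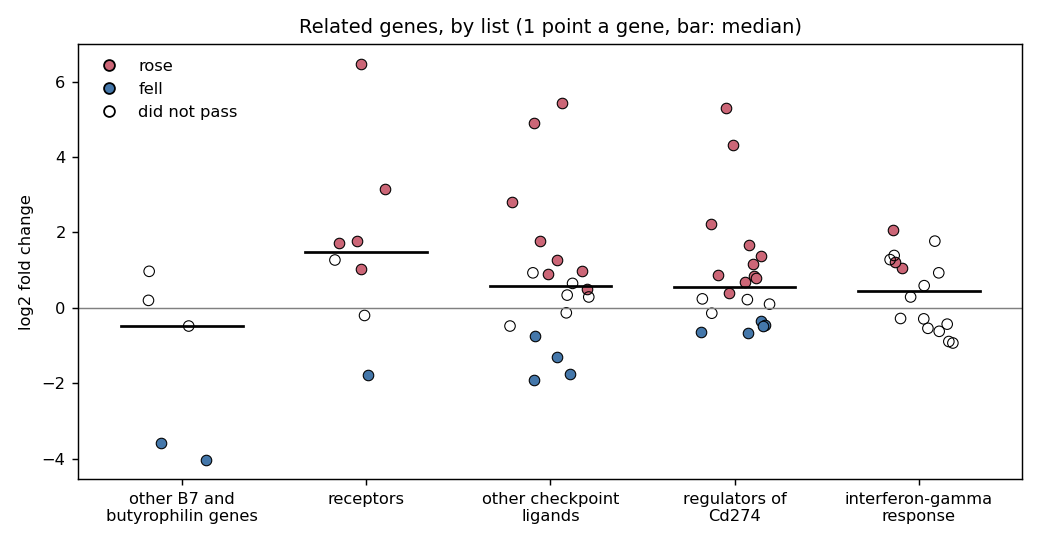
Log2 fold change (Yap-activated against Normal) of the tested genes of 5 lists, 1 point a gene, filled red where the gene rose, blue where it fell and open where it did not pass the threshold, with the list's median as a bar. Tigit (6.47), Ceacam1 (5.43) and Tead4 (5.31) are the highest of their lists, and Btnl9 (-4.02) the lowest of the first.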

How the data were processed

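The authors deposited 1 table of raw counts by gene symbol, with a column for each of the 6 libraries. The submitters' processing notes name STAR 2.4.2a and DESeq2; the labels name a TruSeq Stranded mRNA kit with paired 50 bp reads. The sources used here do not name the counting program, its strand setting or the annotation. Genes on the opposite strand overlap exons of Cd274 and Cd276 in GENCODE mouse release 21, and their reads may sit in those counts. The test was edgeR's robust quasi-likelihood test (edgeR 4.0.16, R 4.3.3) between the groups (filterByExpr with a minimum count of 10, TMM scaling, Benjamini-Hochberg over all 14600 genes tested, threshold 0.05). It was checked on simulated counts with the same spread setting for every gene and changes only in genes with more counts. That check does not cover scarce genes or genes with a wide spread. Each SE was taken as the absolute log2 fold change over the root of its F statistic. A pseudocount of 0.5 CPM was used for correlations. Coordinates and exon lengths are from GENCODE on GRCm38, which held 21523 of the 21526 symbols, and promoter sequences from RefSeq on GRCm38.p6. The members and lists were chosen with earlier results of these data known. Genes named besides the 9 are their neighbours, Yap1, the 3 genes most like Cd274 and, in each list, the 3 with the smallest p and the most abundant; other list genes are examples picked after their values were seen. The alternatives were other scalings and filters, DESeq2 1.42.0, limma voom (limma 3.58.1), a replicate block and leaving out each library.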

Additional observations from a re-analysis of the deposited data

How the results depend on the processing

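None of the 9 genes changed direction in any alternative that gave it a value. Of the 9, 5 to 8 were past the threshold in either direction when 1 library was left out, 5 without Normal replicate 2 or Normal replicate 3, and 6 of the 7 tested with a filter of 1 CPM in 3 libraries. Without Yap-activated replicate 1, 7 were higher and Icosl was lower. Without Yap-activated replicate 3, 8 were tested, Pdcd1lg2 not among them, and 6 were higher and Icosl lower. Scaling by library totals alone shifted the median log2 fold change over all genes by 0.49 and put 76.6% of the calls on the higher side, where TMM put 50.0%. Timmdc1 and Tmem39a, neighbours of Cd80, then turned from -0.41 and -0.16 to 0.08 and 0.33. Calls over all genes ran from 7213 to 8577 when 1 library was left out. For other B7 and butyrophilin genes 1 was called with the 1 CPM filter and 1 with limma voom against 2, and 1 to 4 when 1 library was left out. Interferon-gamma response genes gave 3 calls, but 7 with library totals alone, 6 with DESeq2 and 1 to 7 when 1 library was left out; without Yap-activated replicate 3, 2 rose and 5 fell. Dendritic cell and macrophage genes gave 5, but 10 with library totals alone and 4 to 10 when 1 library was left out, 10 being the value without Yap-activated replicate 2. Lymphocyte genes gave 1, but 3 with library totals alone, 2 with no filter, 0 with the 1 CPM filter (2 tested), 2 with DESeq2 and 0 to 5 when 1 library was left out. Lymphocyte and related receptor genes gave 6, and 4 to 9 when 1 library was left out. Genes linked to PD-L1 gave 16 (11 higher), and 14 (all higher) with library totals alone. Neutrophil genes gave 6, but 2 with limma voom. The deviations of same-numbered libraries had correlations of 0.0739, 0.0382 and 0.0799. These were small but the highest of all pairs, the others running from -0.118 to 0.0373. With 3 libraries a group, this cannot show whether the numbers pair the libraries. The replicate block gave 8561 calls against 8682 and 9 of the 9 genes against 8, Icosl being added. Pdcd1lg2, Btn1a1 and Btn2a2 rest on 5, 3 and 2 Normal counts in all, which limits their ratios.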
